A study of Mus musculus with 2 samples.

Results

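The 8 genes described here encode secreted or membrane-bound cytokines of T and NK cells: Ifng, Tnf, Il4, Lta, Ltb, Csf1, Csf2 and Tgfb1. They were taken by gene symbol from the 32285 features of 2 single-cell RNA libraries, and all 8 were found. Their transcripts were counted in 5 cell classes of mouse thymus: Trav11+ T cells, Klrb1c+ T cells, Izumo1r+ T cells, CD8 T cells and NK cells. Both libraries came from sorted YFP+ thymus cells of mice that carry Tbx21Cre, a Cre recombinase under Tbx21, which encodes the transcription factor T-bet, and Rosa26-YFP, a reporter that stays on after Cre has acted. YFP therefore marks cells that have expressed T-bet at some time, not only those that express it when sorted. The control library had the genotype Tbx21Cre Rosa26-YFP+, and the cKO library had Tbx21Cre Ets1F/F Rosa26-YFP+, with floxed Ets1, the gene of an ETS family transcription factor. Each library pooled the thymus cells of 2 mice that cannot be told apart, and the age of the mice was not given. As each genotype has 1 library, no difference has a replicate check and none was tested. The intervals given are exact at the 95% level and reflect the error of counting alone.

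Interferon gamma, encoded by Ifng, is the defining cytokine of type 1 immunity, and interleukin 4, encoded by Il4, is that of type 2 immunity. Invariant natural killer T cells, T cells whose receptor is built on the Trav11 segment, are known for making both soon after stimulation, and the subset that expresses T-bet is known mainly for interferon gamma. Lymphotoxin beta holds lymphotoxin alpha at the cell surface, and this complex acts through the lymphotoxin beta receptor on stromal and epithelial cells, including those of the thymic medulla.

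After filtering, 7395 control cells had a median of 2666 UMIs (counted transcript molecules) and 5903 cKO cells had a median of 5533. More than 10% mitochondrial UMIs, the limit used, were found in 6.76% of control and 28.6% of cKO barcodes, and 14 of the kept cells carried a barcode that was also kept in the other library. Classes were picked by 1 or more UMIs of the named marker in cells with a CD3 UMI, and NK cells by Ncr1 without CD3. The control and cKO libraries held 177 and 149 Trav11+ T cells, 2544 and 364 Klrb1c+ T cells, 2216 and 387 Izumo1r+ T cells, 907 and 621 CD8 T cells, and 105 and 53 NK cells. Median depth ranged from 3249 to 6607 UMIs in the control classes and from 7038 to 8632 in the cKO classes. The classes overlapped: 1085 control cells were both Klrb1c+ and Izumo1r+, against 21 cKO cells. A class marker itself was rarer in the cKO library: among Trav11+ T cells Klrb1c had 192 CPM (counts scaled to the total UMIs of the class) in the control library and 13.5 in the other. Where 2 levels stand together below, control comes first and cKO second unless cells are named. The NK identity list summed to 17669 and 17590 CPM in NK cells, but the granzyme gene Gzma made 9823 and 11414 CPM of this. Of its 8 genes 2 were called lower in cKO and 0 higher. Klra8 fell from 370 to 47.1 CPM, while Klri2 dropped from 117 to 9.43 CPM. Tyrobp was detected in 96.2% of control but 71.7% of cKO NK cells, whereas 50.5% and 52.8% held Eomes. The part of this makeup in the NK values of Ltb, Tgfb1 and Csf2 was not tested. A UMI of the T cell receptor gene Trbc2 was held by 56.2% and 45.3% of NK cells. Cd4 was found in 6.28% and 14.5% of CD8 T cells. The targeted gene Ets1 was lower in the cKO library in each of the 5 classes, at 547 and 170 CPM in Trav11+ T cells and at 375 and 80.1 CPM in NK cells. The 3′ counts may lie outside the deleted part, so they do not measure functional Ets1. Of 8 gut epithelium markers, the summed level ranged from 5.64 to 8.16 CPM in the control classes and from 43.6 to 1395 CPM in the cKO classes, highest in NK cells. Cells with Epcam and without CD3 made up 0.0811% of kept control and 29.0% of kept cKO cells, and T cells 96.6% and 60.9%. Alternatives that leave out cells with gut marker UMIs are given below. The part of gut RNA in the results was not otherwise tested.

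Ltb, Tnf and Lta lie side by side on chromosome 17 of GRCm38, in 10913 bp. Ltb (ENSMUSG00000024399) spans chr17:35194439-35196320 on the plus strand, Tnf (ENSMUSG00000024401) chr17:35199381-35202007 on the minus strand, and Lta (ENSMUSG00000024402) chr17:35203165-35205351 on the minus strand. Between Ltb and Tnf lie 3060 bp, and between Tnf and Lta 1157 bp. Ifng (ENSMUSG00000055170) lies at chr10:118441046-118445892 on the plus strand. Il4 (ENSMUSG00000000869, chr11:53602982-53618669) and Csf2 (ENSMUSG00000018916, chr11:54247271-54249667) share chromosome 11 and the minus strand, 628601 bp apart. Csf1 (ENSMUSG00000014599) lies at chr3:107741048-107760469 on the minus strand and Tgfb1 (ENSMUSG00000002603) at chr7:25687002-25705077 on the plus strand. RefSeq promoter windows of 300 bases on GRCm38.p6, from 250 before to 50 after a start, were held for all 8 genes. The 4 printed here read 5′ to 3′ on the strand of its gene. Ltb and Tnf are shown as neighbours whose levels moved in different numbers of classes, and Ifng and Il4 as the type 1 and type 2 genes. Capitals mark exact matches to the searched letters.
Ltb promoter, chr17:35194257-35194556, plus strand: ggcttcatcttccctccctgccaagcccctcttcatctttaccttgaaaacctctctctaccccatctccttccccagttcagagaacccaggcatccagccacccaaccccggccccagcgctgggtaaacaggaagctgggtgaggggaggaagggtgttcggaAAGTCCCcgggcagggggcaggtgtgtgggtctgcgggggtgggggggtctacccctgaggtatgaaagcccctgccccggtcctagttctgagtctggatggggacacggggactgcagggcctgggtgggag
Tnf promoter, chr17:35201958-35202257, minus strand: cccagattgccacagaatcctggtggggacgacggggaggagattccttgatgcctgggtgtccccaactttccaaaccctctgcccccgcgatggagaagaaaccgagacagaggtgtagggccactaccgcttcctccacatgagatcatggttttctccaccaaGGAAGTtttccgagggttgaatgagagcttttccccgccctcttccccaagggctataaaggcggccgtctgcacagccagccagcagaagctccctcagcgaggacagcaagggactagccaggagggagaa
Ifng promoter, chr10:118440796-118441095, plus strand: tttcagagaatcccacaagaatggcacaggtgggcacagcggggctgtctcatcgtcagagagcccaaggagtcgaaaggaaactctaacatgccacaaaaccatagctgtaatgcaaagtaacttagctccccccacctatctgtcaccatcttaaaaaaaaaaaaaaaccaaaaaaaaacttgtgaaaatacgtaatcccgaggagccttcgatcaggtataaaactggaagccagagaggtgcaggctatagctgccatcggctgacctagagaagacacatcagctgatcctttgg
Il4 promoter, chr11:53618616-53618915, minus strand: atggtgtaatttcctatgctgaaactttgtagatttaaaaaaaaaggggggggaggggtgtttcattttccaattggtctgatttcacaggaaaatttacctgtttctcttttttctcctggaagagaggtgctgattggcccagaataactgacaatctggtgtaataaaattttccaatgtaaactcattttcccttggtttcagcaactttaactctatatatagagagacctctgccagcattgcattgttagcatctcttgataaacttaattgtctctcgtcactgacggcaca
The letters searched on both strands were GGAAGT, an ETS core with flanks, GGTGTGA, a part of a T-box site, and GGGACTT, a part of an NF-kB site. GGAAGT stood in the Tnf window at -83 from the start and in no other member's window, while 23.8% of 32851 RefSeq promoter windows hold it. GGGACTT stood, read as AAGTCCC, at -84 in the Ltb window and at -151 in that of Csf1, against 5.44% of all windows. GGTGTGA, held by 3.98% of all windows, was in none of the 9 windows of these genes. A match is a description of letters, and an absent match says only that these letters are not in this window.

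Ltb was lower in the cKO library in all 5 classes, and the other genes were called in 1 class or none. To be called, a gene had to differ at least 1.5-fold, to have 20 CPM or more in one library, and to have a ratio whose interval left out 1. Of the 8 genes 5 reached 20 CPM in Trav11+ T cells, 4 in Klrb1c+ T, Izumo1r+ T and NK cells, and 3 in CD8 T cells. For Trav11+ T cells 1 was higher (Il4) and 2 lower (Ltb, Tnf), where 16.1% and 7.66% of 6159 features were called higher and lower. For Klrb1c+ T cells 0 were higher and 1 lower (Ltb), against 16.0% and 7.46% of features. For Izumo1r+ T cells 0 were higher and 1 lower (Ltb), against 8.64% and 4.94%. For CD8 T cells 1 was higher (Ifng) and 1 lower (Ltb), against 22.3% and 6.29%. For NK cells 1 was higher (Csf2) and 2 lower (Ltb, Tgfb1), against 7.13% and 9.78%. The median log2 ratio over the members that reached the level was -0.51 in Trav11+ T, -0.22 in Klrb1c+ T, -0.26 in Izumo1r+ T, 0.12 in CD8 T and -0.44 in NK cells, and over all such features 0.16, 0.17, 0.12, 0.27 and -0.04. Scaling to the median ratio of features moved the T cell medians by -0.15, -0.16, -0.11 and -0.26. Ltb kept its direction and its calls under it, while the Ifng call in CD8 T cells was lost, as it was with a total free of mitochondrial and ribosomal protein genes, where Ifng was 1.33-fold higher.

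Ltb encodes the membrane-bound lymphotoxin. Trav11+ T cells held Ltb at 971 CPM (interval 917 to 1028), and those of the cKO library at 391 CPM (357 to 427). That is 2.48-fold lower in cKO (2.23 to 2.76), and the intervals were far apart. Klrb1c+ T cells held 987 and 358 CPM, 2.76-fold lower (2.60 to 2.94). Izumo1r+ T cells held 1015 and 521 CPM, 1.95-fold lower (1.86 to 2.04). The gap was wider in CD8 T cells, at 691 and 213 CPM, 3.24-fold lower (3.04 to 3.46). Control levels were thus close to each other in the first 3 classes, and the cKO level of Izumo1r+ T cells was the highest of the 5. NK cells held 255 control UMIs and 38 cKO UMIs of Ltb, or 467 and 89.5 CPM, 5.16-fold lower (3.70 to 7.54). That NK value is the least certain, since it came to 1.41-fold, under the size for a call, when every cell was weighted equally.

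Of the 5912 features that reached 20 CPM in CD8 T cells, 38 had a lower ratio than Ltb, and of the 5935 in Klrb1c+ T cells, 84 did. The order of Ltb levels in the cKO library was Izumo1r+ T (521 CPM), Trav11+ T (391 CPM), Klrb1c+ T (358 CPM), CD8 T (213 CPM) and NK cells (89.5 CPM), and the Trav11+ and Klrb1c+ intervals overlapped. Ets1 in the same cells stood at 247, 170, 156, 177 and 80.1 CPM. In T cells marked by Trdc, a gene of the gamma-delta receptor, 167 control and 136 cKO cells held 719 and 322 CPM of Ltb, 2.23-fold lower (1.97 to 2.54). Of all features 5.53% were called lower and 11.4% higher there. B cells, picked by Cd79a without CD3 (55 control and 311 cKO cells), held 821 and 926 CPM of Ltb, a ratio of 1.13 (0.995 to 1.28) with overlapping intervals. None of the 4 members that reached the level was called in B cells, where 14.1% of features were called higher and 5.43% lower. Their Ets1 stood at 211 and 128 CPM and their gut epithelium markers at 0 and 7668 CPM.

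**Figure D1:**
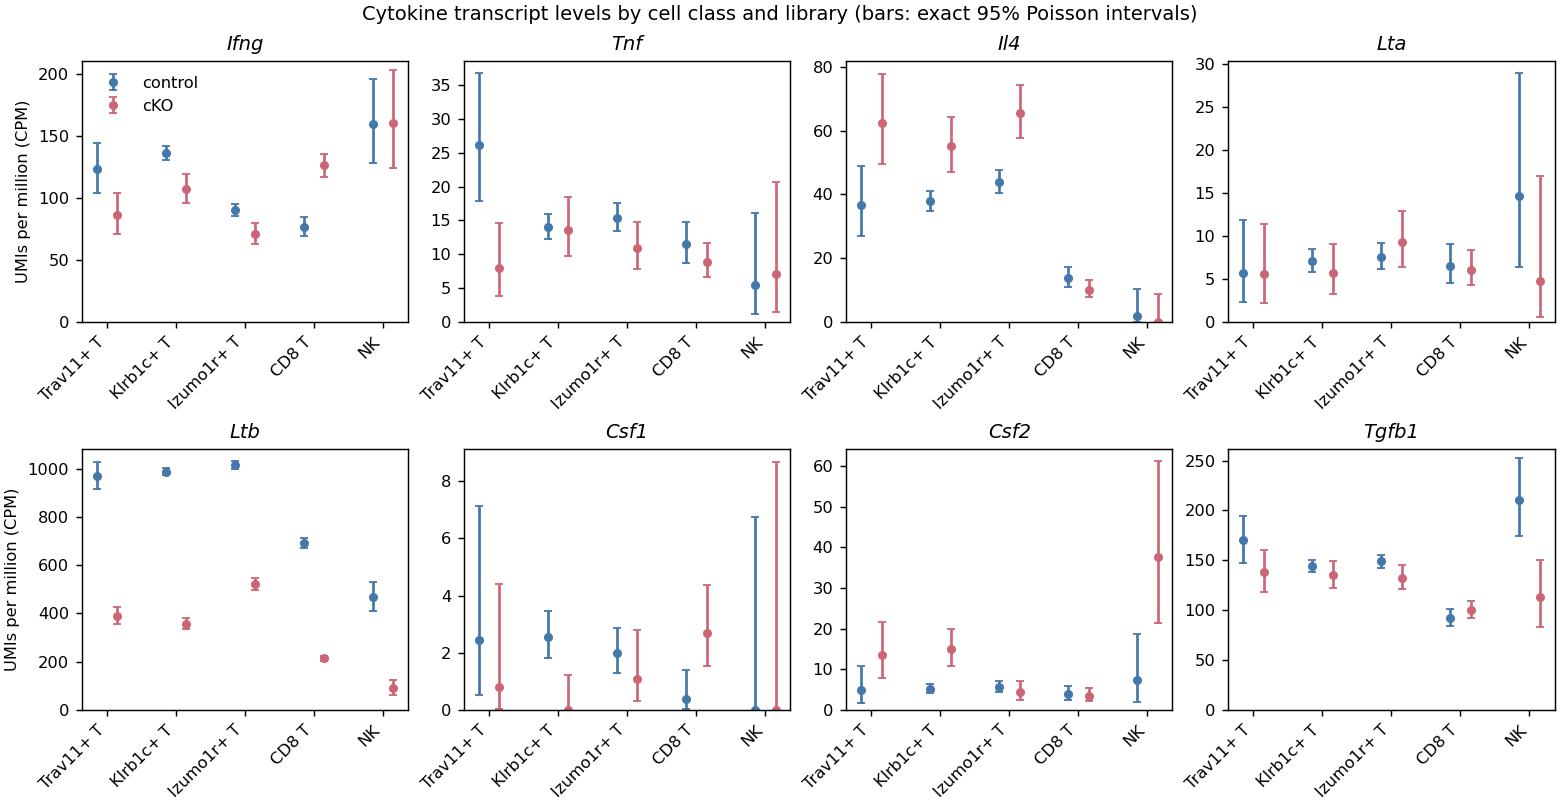
Levels of the 8 cytokine genes in CPM (vertical axes from 0, scaled per gene) in the 5 cell classes, as points for the control and cKO libraries with exact 95% Poisson intervals. Ltb is lower in the cKO library in each class, from 1015 to 521 CPM in Izumo1r+ T cells and from 467 to 89.5 CPM in NK cells.

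The lower level of Ltb showed in the share of cells that held it. Each cell was thinned to 1500 UMIs so that depth was equal, which left out 12, 345, 285, 173 and 19 control cells and 3, 1, 6, 6 and 14 cKO cells of the 5 classes in the order above. A UMI of Ltb was then held by 73.9% (66.5 to 80.5) of control and 38.4% (30.4 to 46.8) of cKO Trav11+ T cells, and without thinning by 95.5% and 72.5%, at median depths of 6607 and 7038 UMIs. In CD8 T cells the thinned shares were 62.9% and 21.6%, and the unthinned ones 83.2% and 46.4%. Epithelial cells of the cKO library (Epcam without CD3), which should lack Ltb, held it in 4.30% of cells after thinning and in 4.61% before, at a median depth of 1416 UMIs. The T cell shares in both libraries were well above that level, while the 7.69% of cKO NK cells (1.62 to 20.9) could not be told from it. Cells with 3 or more Ltb UMIs after thinning made up 22.4% of control and 6.16% of cKO Trav11+ T cells, and 22.7% and 5.51% of Klrb1c+ T cells. Cells with 1 UMI made up 29.7% (22.8 to 37.3) of control and 19.9% (13.7 to 27.3) of cKO Trav11+ T cells, which overlapped.

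**Figure D2:**
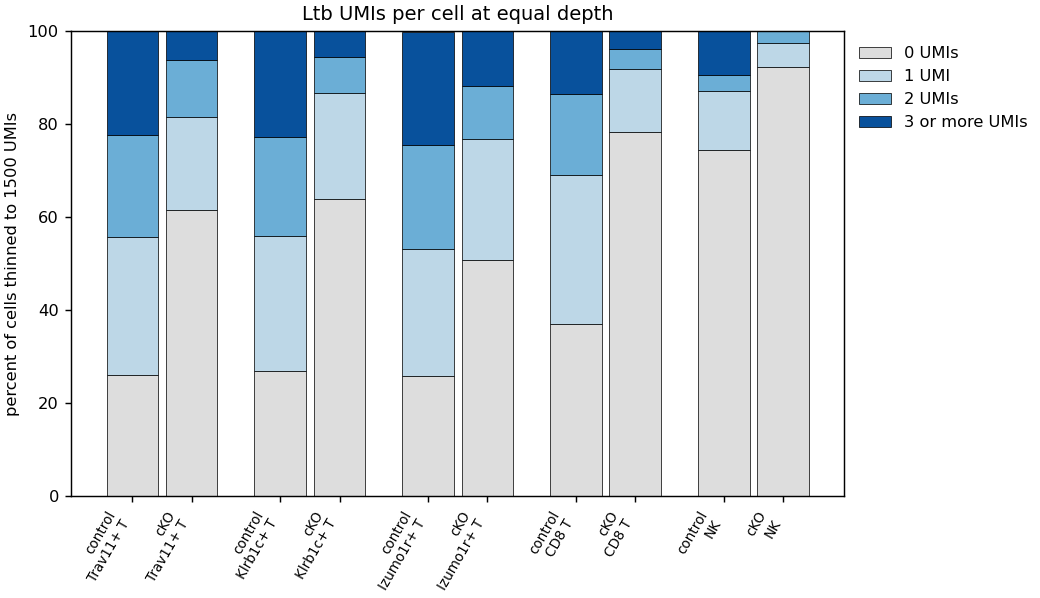
Share of cells, in percent, with 0, 1, 2 or 3 or more Ltb UMIs after thinning each cell to 1500 UMIs, as stacked bars for each class and library. Cells without an Ltb UMI make up 26.1% of control and 61.6% of cKO Trav11+ T cells, and the bars of the other classes shift the same way.

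Tnf, the gene of tumor necrosis factor, reached 20 CPM in Trav11+ T cells alone among the 5 classes. The 32 control UMIs gave 26.1 CPM (17.9 to 36.8), and the 10 cKO UMIs gave 7.92 CPM (3.80 to 14.6), a level 3.19-fold lower (1.58 to 7.52). The control UMIs came from 14 cells, and 2 of these cells held 46.9% of them. The thinned shares of cells with a Tnf UMI were 1.82% and 2.05% and overlapped, while without thinning 7.91% and 6.71% of cells held one. The cKO epithelial cells held Tnf in 0.379% of cells after thinning. The Trav11+ difference turned to a ratio of 1.15 when 2 Trav11 UMIs were asked for, which left 21 control and 23 cKO cells, and was no longer called without cells holding 3 or more gut marker UMIs, where the ratio was 0.385. Without the 5% deepest cells the ratio was 0.875, and the members called lower were then Ifng and Ltb. In the other 3 T cell classes Tnf stood between 11.5 and 15.4 CPM in control and between 8.89 and 13.6 CPM in cKO. In NK cells each library held 3 Tnf UMIs.

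Lta, which encodes the secreted partner of lymphotoxin beta, stayed under 20 CPM in each of the 5 classes. It stood between 5.71 and 7.54 CPM in the control T cell classes and between 5.54 and 9.23 CPM in the cKO ones, and each ratio interval held 1. In NK cells 8 control UMIs and 2 cKO UMIs were found, 14.6 and 4.71 CPM. The ratio there was 0.379 with an interval of 0.0333 to 1.61. Ltb was therefore called lower in all 5 classes, Tnf in 1 and Lta, the neighbour on the far side of Tnf, in none, and in the other classes neither Tnf nor Lta reached the level needed for a call.

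Ifng did not pass the rule in Trav11+, Klrb1c+ or Izumo1r+ T cells, and its values were lower in the cKO library in each. Trav11+ T cells held 123 CPM (104 to 144) and 86.3 CPM (70.9 to 104), a ratio of 0.702 (0.543 to 0.903). That ratio lay close to the size asked for: Ifng was called lower there, making 3 members lower, with the total free of mitochondrial and ribosomal protein genes (0.618), with median-ratio scaling (0.636), at a 5% mitochondrial limit (0.632) and among cells of at least 3000 UMIs (0.657). It was also called without the 5% deepest cells (0.635), and with 2 Trav11 UMIs it turned to 1.57. Klrb1c+ T cells held 136 and 107 CPM of Ifng, a ratio of 0.789 (0.699 to 0.887). Of the 8 NK cell identity genes 5 were called higher in the same cKO cells and 0 lower, against 16.0% and 7.46% of features. Tyrobp was counted at 110 and 533 CPM, Ncr1 had 27.3 and 94.7 CPM, while for Eomes the levels were 14.3 and 84.4 CPM. Klre1 of that list stood at 206 and 222 CPM, and Klri2 went the other way, at 10.5 and 1.99 CPM. Trdc was found in 2.71% and 12.9% of Klrb1c+ T cells, at 22.4 and 119 CPM. With 2 CD3 UMIs asked for, the Ifng ratio was 0.677. The part of these NK cell genes and of cells with Trdc was not tested. Izumo1r+ T cells held 90.0 and 70.6 CPM, a ratio of 0.786 (0.684 to 0.898). The 3 ratio intervals excluded 1 and none of the ratios reached the 1.5-fold size. In CD8 T cells the direction was the opposite: Ifng rose from 76.7 CPM (69.4 to 84.6) to 126 CPM (117 to 135), a ratio of 1.64 (1.45 to 1.85). NK cells held 159 and 160 CPM, a ratio of 1.01 (0.721 to 1.40), but with every cell weighted equally the NK ratio was 0.579 and Ifng was called lower. The order of classes therefore differed between the libraries. In control cells NK, Klrb1c+ T and Trav11+ T cells were highest with neighbouring intervals that overlapped, and CD8 T cells were lowest at 76.7 CPM, apart from all others. In cKO cells CD8 T cells came second after NK cells, and each neighbouring pair overlapped.

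After thinning, a UMI of Ifng was held by 15.8% (10.6 to 22.2) of control and 8.22% (4.32 to 13.9) of cKO Trav11+ T cells, against 35.0% and 30.9% before thinning. Among Klrb1c+ T cells the shares were 15.0% (13.5 to 16.6) and 9.37% (6.57 to 12.8), which did not overlap, and without thinning 31.4% and 33.0%, in the other direction at unequal depths of 6180 and 7528 UMIs. Among Izumo1r+ T cells they were 11.3% and 7.09%, and 24.5% and 27.1% before thinning. CD8 T cells held it in 10.5% (8.37 to 12.9) and 12.7% (10.2 to 15.6), which overlapped, although their summed level was called higher. Before thinning these CD8 shares were 20.6% and 37.0%, at unequal depths of 3249 and 8632 UMIs. B cells, which should lack Ifng, had it after thinning in 0 of 35 control cells (a count that allows up to 8.57%) and in 1.37% of cKO cells. Before thinning, 3.64% and 5.79% of B cells held a UMI, at median depths of 2133 and 2941 UMIs. Ifng UMIs were concentrated in few cells. Of the 2544 control Klrb1c+ T cells 113 held 5 or more Ifng UMIs, and these cells carried 46.7% of all Ifng UMIs of the class. In cKO CD8 T cells 45 such cells held 57.5% of the Ifng UMIs, and in control CD8 T cells 15 such cells held 34.9%. These counts were made without thinning, and the deeper cKO CD8 T cells reach 5 UMIs more easily. The part of depth in them was not tested. The highest count in a Klrb1c+ T cell was 29 in control and 35 in cKO. Without the 5% deepest cells, Ifng was called lower in cKO Klrb1c+ T cells.

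The overlap of Klrb1c and Izumo1r, which differs between the libraries, touched the Ifng values. Both splits that follow were chosen after the data were seen. Among T cells with Klrb1c but no Izumo1r UMI, Ifng fell from 178 CPM in 1459 control cells to 107 CPM in 343 cKO cells, 1.66-fold lower (1.47 to 1.90), and Il4 rose from 32.9 to 52.6 CPM. Of all features 7.43% were called lower and 16.8% higher there. Among T cells with Izumo1r but no Klrb1c UMI, Ifng was found at 76.4 and 67.8 CPM in 1131 control and 366 cKO cells, a ratio of 0.888 (0.752 to 1.04) whose interval held 1. In that comparison Ltb alone was called among the members, with 4.81% of features called lower and 8.62% higher. Within the control library Ifng was 2.32-fold higher (2.08 to 2.60) in the Klrb1c+ Izumo1r- cells than in the Izumo1r+ Klrb1c- cells, where 1.67% of 5560 features were called higher. Within the cKO library it was 1.57-fold higher (1.32 to 1.87), where 9.63% of 6045 features were called higher. Ltb was 1.51-fold lower (345 against 522 CPM) in the Klrb1c+ Izumo1r- cells of the cKO library, where 6.62% were called lower, and stood at 954 and 1011 CPM in control.

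The CD8 T cells of the libraries differed in makeup. Gzmk, a granzyme gene of effector-like CD8 T cells, was held by 3.68% (2.44 to 5.31) of thinned control and 40.8% (36.9 to 44.8) of thinned cKO CD8 T cells, and by 7.39% and 67.0% before thinning. Over CD8 T cells 8 NK cell identity genes summed to 601 and 10478 CPM, of which Gzma, a granzyme gene that cytotoxic CD8 T cells also express, made 283 and 10212 CPM. Of the 8 genes 1 was called higher and 1 lower, against 22.3% and 6.29% of features. Ncr1 stood at 8.80 and 3.52 CPM and Tyrobp at 34.0 and 23.8 CPM, while Eomes stood at 111 and 116 CPM and Klre1 at 65.6 and 74.5 CPM. In the same cells 6 double-positive thymocyte markers summed to 204 and 403 CPM. With a Gzmk UMI the sum was 168 CPM in both libraries, and without one it was 208 and 1008 CPM. Of the 6 markers 5 were called higher without Gzmk, where 28.5% of features were. The part of these markers in the values given below for cells without Gzmk was not tested. Cells with a Gzmk UMI also differed between the libraries, with Gzmk at 336 and 703 CPM. Their 8 NK cell identity genes summed to 1247 and 14307 CPM, with 2 called higher and 1 lower, against 11.8% and 8.09% of features. The part of this makeup in the values for cells with Gzmk was not tested. Among CD8 T cells with a Gzmk UMI, 67 control and 416 cKO cells held 172 and 147 CPM of Ifng, a ratio of 0.852 (0.683 to 1.09). The 840 control and 205 cKO cells without one held 66.6 and 69.6 CPM, a ratio of 1.05 (0.837 to 1.30). Within either group of CD8 T cells the Ifng intervals of the libraries overlapped, while over all CD8 T cells they did not. Cells with Gzmk held more Ifng than cells without it in both libraries, 2.60-fold (2.01 to 3.29) in control, where 9.27% of features were called higher, and 2.11-fold (1.74 to 2.61) in cKO, where 6.15% were. The Gzmk-negative control cells were shallower, with a median of 3084 UMIs against 7501 in cKO, so some of them may hold Gzmk that was not detected.

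Ltb differed within both groups of CD8 T cells. Cells with Gzmk held 787 and 136 CPM, 5.79-fold lower (5.08 to 6.58). Cells without it held 681 and 412 CPM, 1.65-fold lower (1.52 to 1.80). Of all features 8.09% and 3.75% were called lower in these comparisons, and 11.8% and 28.5% higher. In control cells Ltb was 1.16-fold as high with Gzmk as without (1.04 to 1.28), and in cKO cells it was 3.03-fold lower with Gzmk, where 13.0% of features were called lower, against 2.62% in control. Ets1 stood at 428 and 138 CPM with Gzmk, and at 362 and 276 CPM without. The part of that smaller Ets1 difference in the smaller Ltb difference was not tested. Il4 was close to absent with Gzmk, at 0 control UMIs and 18 cKO UMIs, and stood at 15.2 and 25.2 CPM without it, which was called higher at a ratio of 1.66 (1.10 to 2.45). Its thinned shares of cells, 2.38% and 1.99%, overlapped.

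**Figure D3:**
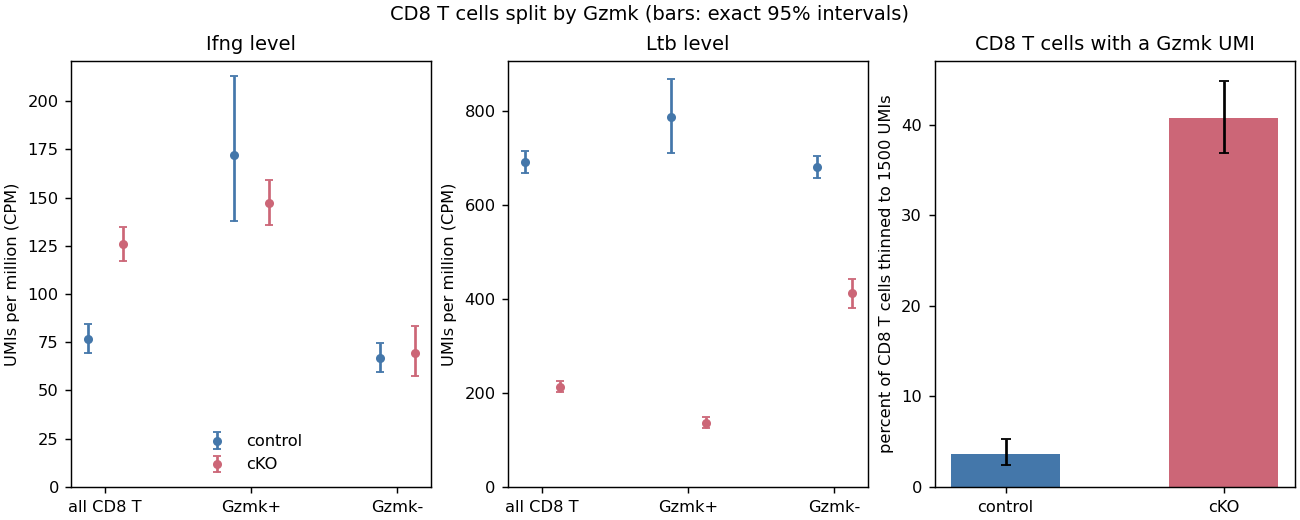
Left and middle, Ifng and Ltb levels (CPM, axes from 0) in all CD8 T cells and in those with and without a Gzmk UMI, as one point per library with exact 95% Poisson intervals. Right, percent of CD8 T cells with a Gzmk UMI after thinning, 3.68% in control and 40.8% in cKO, with Clopper-Pearson intervals; the Ifng intervals of the libraries overlap within each Gzmk group and the Ltb intervals do not.

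Il4 was higher in the cKO library in the T cell classes other than CD8, close to the size that the rule asks for. Il4 rose from 36.7 CPM (26.8 to 49.1) to 62.6 CPM (49.5 to 78.0) in Trav11+ T cells, a ratio of 1.70 (1.17 to 2.52). This call was lost with a total free of mitochondrial and ribosomal protein genes (a ratio of 1.49), with 2 Trav11 UMIs and with cells in 1 class only (2.31, 38 control and 113 cKO cells). Without cells with B, gut or myeloid UMIs, which left 29 control and 15 cKO cells, the ratio turned to 0.360. That filter also drops cells with Fcer1g, a gene of the NK identity list found in 44.1% and 18.8% of Trav11+ T cells. Klrb1c+ T cells held 37.8 and 55.2 CPM of Il4, a ratio of 1.46 (1.22 to 1.74). Izumo1r+ T cells held 43.9 and 65.7 CPM, and the ratio lay just under 1.5 (1.28 to 1.74). The makeup of that class differed: Foxp3, which marks regulatory T cells, was found in 0.677% and 9.04% of its cells, Cd4 in 18.1% and 40.1%, and Klrb1c in 49.0% and 5.43%. Their part in the Il4 value was not tested. The 3 ratio intervals overlapped each other and excluded 1. Over all T cells, 7143 in control and 3597 in cKO, Il4 rose from 36.1 to 54.6 CPM, a ratio of 1.51 (1.40 to 1.63), where 13.2% of 5965 features were called higher and 4.69% lower. CD8 T cells held 13.8 and 10.1 CPM, a ratio of 0.732 (0.510 to 1.04), and NK cells 1 and 0 UMIs. Neighbouring intervals overlapped among the 3 classes with the most Il4 in both libraries.

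After thinning, a UMI of Il4 was held by 4.82% (3.96 to 5.80) of control and 9.09% (6.34 to 12.5) of cKO Klrb1c+ T cells, and by 16.7% and 30.2% before thinning. In Trav11+ T cells the shares were 6.06% and 8.22%, with overlapping intervals, and 19.8% and 30.9% before thinning. B cells had it in 0 of 35 control and 0 of 219 cKO cells (counts that allow 8.57% and 1.37%), and before thinning in 0% and 0.643%. Some cKO cells held many Il4 UMIs: cells with 5 or more carried 31.8% of the Il4 UMIs of cKO Izumo1r+ T cells, and no control cell of that class held as many. These counts were made without thinning, at median depths of 6092 and 8307 UMIs, and the part of depth was not tested. Fxyd7, found in 1634 cKO and 5 control T cells, split the cKO cells further. Within the cKO library, T cells without Cd8b1 held Il4 at 84.1 CPM with Fxyd7 and 49.5 CPM without, a ratio of 1.70 (1.53 to 1.89), in a comparison where 2.11% of 5976 features were called higher and 3.83% lower. Ltb stood at 431 CPM with Fxyd7 and 474 CPM without, and Ifng at 83.5 and 90.1 CPM, under the size for a call.

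Csf2, which encodes the myeloid growth factor GM-CSF, was scarce. In Klrb1c+ T cells 82 control UMIs gave 5.23 CPM and 45 cKO UMIs gave 15.0 CPM, a ratio of 2.87 (1.94 to 4.16) at levels under the 20 CPM of the rule. In Trav11+ T cells 6 and 17 UMIs gave 4.89 and 13.5 CPM, and over all T cells 168 and 375 UMIs gave 5.26 and 13.5 CPM, a ratio of 2.55 (2.13 to 3.09). Izumo1r+ T cells at 5.71 and 4.35 CPM and CD8 T cells at 3.82 and 3.52 CPM had ratios of 0.780 and 0.920, whose intervals held 1. After thinning, 0.751% (0.532 to 1.03) of all control and 2.15% (1.70 to 2.69) of all cKO T cells held a Csf2 UMI, and before thinning 2.07% and 8.51%. No thinned B cell held one, which allows up to 8.57% in control and 1.37% in cKO. In NK cells Csf2 was called higher at 7.32 and 37.7 CPM, from 4 control UMIs in 3 cells and 16 cKO UMIs in 9 cells, a ratio of 4.72 (1.66 to 21.2). That NK call was lost among cells of at least 3000 UMIs, and with 2 or more Ncr1 UMIs the ratio was 0.931. With Fxyd7, Csf2 stood at 21.8 CPM and without it at 10.5 CPM in the cKO T cells lacking Cd8b1, a ratio of 2.07 (1.66 to 2.62).

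Csf1, the macrophage growth factor gene, was at most 2.68 CPM in the 5 classes. Klrb1c+ T cells held 40 control UMIs and 0 cKO UMIs, and at a floor of 3 UMIs the cKO level was at least 2.56-fold lower. CD8 T cells held 2 control UMIs and 16 cKO UMIs, a ratio of 5.79 with an interval of 1.65 to 62.9. NK cells held no Csf1 UMI in either library. All 16 of these cKO UMIs lay in CD8 T cells with Gzmk.

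Tgfb1 encodes a cytokine that restrains T cell effector function, and it was called in no T cell class of the 5. Trav11+ T cells held 170 and 138 CPM, Klrb1c+ T cells 144 and 135 CPM, Izumo1r+ T cells 149 and 132 CPM, and CD8 T cells 92.6 and 100 CPM. The ratios lay between 0.813 and 1.09, within the 1.5-fold size, and the intervals in Trav11+ T (0.660 to 0.998) and Izumo1r+ T cells (0.805 to 0.983) excluded 1. NK cells were the exception, where Tgfb1 fell from 211 CPM (174 to 253) to 113 CPM (83.4 to 150), 1.85-fold lower (1.32 to 2.66). The thinned shares of NK cells with a Tgfb1 UMI, 23.3% and 20.5%, overlapped. All 8 gut epithelium markers were higher in the cKO NK cells, with sums of 7.32 and 1395 CPM, and their part in these NK values was not tested. Without cells with 3 or more gut marker UMIs, which left 45 of 53 cKO NK cells, Tgfb1 was still called lower at a ratio of 0.559, Ltb at 0.205, and Csf2 was still called higher at 4.98.

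**Figure D4:**
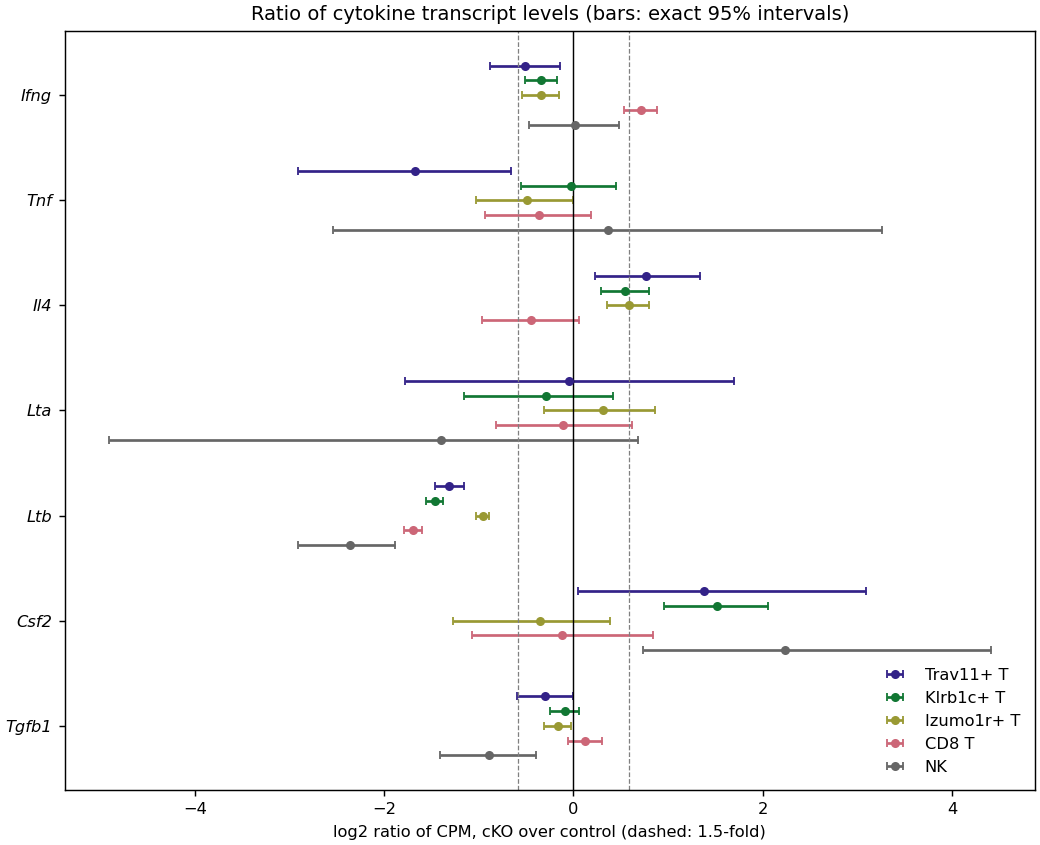
Ratio of levels on a log2 axis, cKO over control, for 7 of the cytokine genes in the 5 classes, with exact 95% intervals and dashed lines at 1.5-fold; Csf1 and the Il4 value of NK cells, which have a count of 0, are left out. The Ltb points all lie left of the lower line, while the Ifng point of CD8 T cells lies right of the upper line and those of the Trav11+, Klrb1c+ and Izumo1r+ T cells lie left of 0.

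Pairs of cytokine genes in single cells were counted after thinning, over 5063 control and 3482 cKO T cells. A pair is set beside the number of cells that the product of the shares gives. Ifng and Il4 were detected together in 28 control cells, where the product gives 35.0, and in 33 cKO cells, where it gives 32.4. Cells with Ifng held Il4 in 3.96% (2.65 to 5.67) of control and 8.73% of cKO cases, and cells without Ifng in 5.12% (4.48 to 5.82) and 8.54% (7.58 to 9.58). Within either library the intervals overlapped, so no difference in Il4 between cells with and without Ifng was detectable at this depth. Class by class the control counts ran from 0.503 times the product in Klrb1c+ T cells (8 cells against 15.9) and 0.569 in Izumo1r+ T cells to 1.79 in CD8 T cells (3 cells). Control Klrb1c+ cells with Ifng held Il4 in 2.42% (1.05 to 4.72) and those without it in 5.24% (4.28 to 6.35), with overlapping intervals. In cKO the counts were 0.971 times the product in Klrb1c+ T cells and 1.88 in Izumo1r+ T cells, from 3 and 4 cells. Of the 28 pairs of genes, 16 had a product of at least 5 cells in each library, and their observed counts ran from 0.522 to 1.18 times the product in control and from 0.614 to 2.29 times in cKO.

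Lta with Ltb in cKO T cells stood highest at 2.29 times the product. Ltb was found in 37 of 45 cKO cells with an Lta UMI, 82.2% (67.9 to 92.0), and in 35.3% (33.7 to 36.9) of those without one. In control cells it was found in 73.8% (61.5 to 84.0) with Lta and 71.6% without, which overlapped. The intervals of the libraries overlapped for cells with Lta and were far apart for cells without it. Before thinning, the B cell marker Cd79a was found in 23.5% of the 136 cKO T cells with both genes, 5.88% of the 17 with Lta alone and 3.98% of those without Lta. In control the values were 10.0%, 0% and 3.34%. The groups differed in depth, with medians of 8204, 7889 and 6944 UMIs in cKO and 6616, 1270 and 2591 UMIs in control. The part of depth in these shares was not tested. B cells hold Lta and Ltb, at 19.1 and 926 CPM in cKO, and the part of B cell RNA in the pair was not tested.

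Il4 with Ltb was found in 206 control cells against 180 by the product and in 132 cKO cells against 107. Ltb was held by 82.1% (76.8 to 86.6) of control cells with Il4 and 71.1% (69.8 to 72.4) without, and by 44.3% (38.6 to 50.1) and 35.1% (33.5 to 36.8) of cKO cells. Over all T cells the intervals were apart in both libraries, and Ltb was lower in cKO with and without Il4. Within each single T cell class the share was also higher with Il4, but the intervals overlapped. In control Klrb1c+ T cells, for example, it was 81.1% (72.4 to 88.1) with Il4 and 72.6% (70.6 to 74.5) without. The part of the mix of classes in the pooled difference was not tested. Il4 with Csf2 was found in 14 cKO cells against 6.42, and Tnf with Il4 in 11 against 5.13. In control the counts were 4 against 1.88 and 3 against 4.76. Ifng with Ltb went the other way in cKO, in 30.4% (25.8 to 35.3) of cells with Ifng and 36.6% (34.9 to 38.3) of those without, with intervals that overlapped slightly. These are sparse counts and are given as a description.

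**Figure D5:**
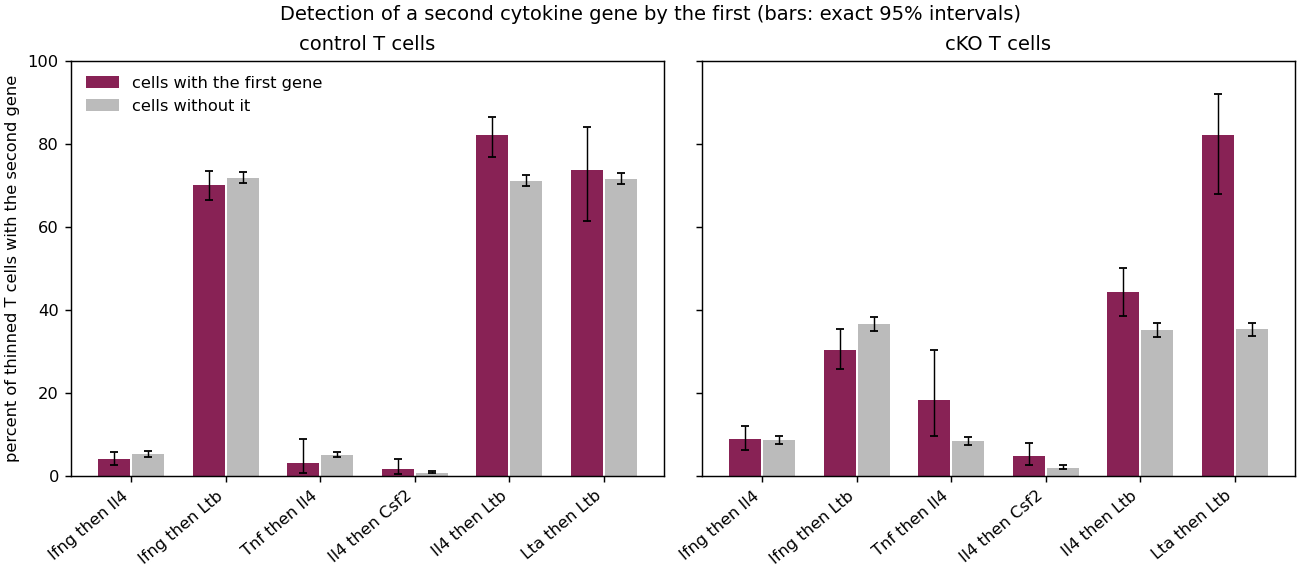
Percent of T cells thinned to 1500 UMIs that hold the second gene of a pair, among cells with the first gene (dark bars) and without it (grey bars), with exact 95% Clopper-Pearson intervals, in the control (left) and cKO (right) library. In cKO, Ltb is held by 82.2% of cells with Lta and 35.3% of cells without it, and in control by 73.8% and 71.6%.

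The receptors of these cytokines showed the clearest difference in Ifngr1, the ligand-binding chain of the interferon gamma receptor. It rose from 354 to 950 CPM in Trav11+ T cells, a ratio of 2.68, from 371 to 990 CPM in Klrb1c+ T cells and from 264 to 518 CPM in CD8 T cells. Of the 14 receptor genes 6 reached 20 CPM in Trav11+ T cells, with 2 higher (Ifngr1 and the tumor necrosis factor receptor gene Tnfrsf1b) and 0 lower, where 16.1% of features were called higher and 7.66% lower. In Klrb1c+ T cells 7 reached it, with 2 higher (Ifngr1 and Tgfbr1) and 1 lower (Il4ra), against 16.0% and 7.46%. Tnfrsf1b stood at 27.7 and 57.0 CPM in Trav11+ T cells, a ratio of 2.04 (1.35 to 3.19). In Klrb1c+ T cells it stood at 33.0 and 49.2 CPM, a ratio of 1.49 (1.23 to 1.79), and was not called. Of 26 other cytokine genes 8 reached the level in Trav11+ T cells, with 3 higher and 1 lower, against the same 16.1% and 7.66%. The costimulatory ligand genes of the tumor necrosis factor family were the 3 that rose: Tnfsf9 from 5.71 to 28.5 CPM, Tnfsf14 from 21.2 to 54.6 CPM, and Cd40lg from 68.5 to 139 CPM. Tnfsf14, whose product LIGHT shares the lymphotoxin beta receptor with the lymphotoxin complex, also rose in Klrb1c+ T cells, from 23.4 to 49.8 CPM, while Cd40lg stood there at 77.3 and 96.4 CPM, a ratio of 1.25. Tnfsf10, the gene of the death ligand TRAIL, was the 1 that fell, as Ltb did in the same Trav11+ T cells.

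Genes that regulate the 8 cytokine genes are given by list, and in Trav11+ T cells each count stands against 16.1% of features called higher and 7.66% lower. Of 12 type 1 inducers at the level in Trav11+ T cells 1 was higher, the interleukin 12 receptor gene Il12rb2 at 62.0 and 105 CPM, and 1 lower, Bhlhe40 at 70.1 and 39.6 CPM, whose product sustains Ifng in T cells. Klrb1c+ T cells had 5 of 13 type 1 inducers higher (Tbx21, Eomes, Irf8, Il12rb2 and Il18rap) and 1 lower (Il27ra), against 16.0% and 7.46% of features. CD8 T cells had 3 of 13 higher (Runx3, Il12rb2 and Bhlhe40) and 1 lower (Il27ra), against 22.3% and 6.29%. Of 6 type 2 inducers in Trav11+ T cells 0 were called in either direction. Of 16 NF-kB and NFAT genes 1 was higher, Nfkbib at 24.5 and 43.6 CPM, and 2 lower, the feedback inhibitor Tnfaip3 at 108 and 32.5 CPM and the signalling protease Malt1 at 225 and 91.9 CPM. Of 10 genes of cytokine mRNA decay 0 were higher and 2 lower, Zfp36 at 161 and 80.0 CPM and Btg2 at 793 and 386 CPM. The transforming growth factor list had 0 higher and 1 lower of 7, the inhibitor Smad7 at 138 and 83.1 CPM. Malt1, Zfp36, Btg2 and Smad7 were also lower in Klrb1c+ T and CD8 T cells, while Bhlhe40 went the other way in CD8 T cells, from 24.5 to 41.4 CPM. The list medians of the log2 ratio ran from -0.18 for mRNA decay to 0.42 for the other cytokine genes in Trav11+ T cells, beside 0.16 over all features.

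Genes whose levels ran most like those of the members were found over the 10 levels, 5 classes in 2 libraries, among 3683 genes, by the correlation of log2(CPM + 10). These points share cells and libraries, and the values are descriptions. Nearest to Ltb were Ppp1r15a (r = 0.99), Eif4a2 (0.99) and Galnt11 (0.98). Nearest to Il4 were Cd40lg (r = 0.99), Nt5e (0.97) and Inpp4b (0.95), to Ifng Pdcd6ip (0.90), Atp2a3 (0.88) and Bhlhe40 (0.88), and to Tgfb1 Orai3 (0.96), Luc7l2 (0.96) and Nfkbia (0.95). Cd40lg and Bhlhe40 thus appear both among the regulators and ligands above and among the nearest genes.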

How the data were processed

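The authors deposited 1 matrix of whole-number UMI counts per library, per the file headers, for YFP+ mouse thymus cells in 3′ libraries. Cell Ranger 2.1.1 and mm10 are named per the submitters' processing notes, while the deposited matrix headers name version 3.0.0, which was not resolved. The gene annotation is not given in the sources used here. From these deposited counts, cells were kept that had 500 or more genes and no more than 10% mitochondrial UMIs, UMIs were summed per class and divided by all UMIs (CPM), and ratios had 0.5 UMIs added to both sums. A count of 0 was set against 3 UMIs. No doublets were called or removed; 2 alternatives leave out deep cells or cells with other markers. The size rule (1.5-fold, 20 CPM, interval without 1) was tested on simulated data with known folds. All 8 members were named whatever their values, with up to 3 genes per pathway list past the rule in Trav11+ T cells and the 3 nearest genes per member at 50 CPM. Members and lists were chosen with earlier results of these data known. The within-library splits, the classes split by Gzmk, Fxyd7, Klrb1c and Izumo1r, the gamma-delta T cells, the Cd79a count, the splits by Ets1 and Tbx21 UMIs and the alternative leaving out cells with 3 or more gut UMIs were added after the data were seen. GENCODE vM21 coordinates cover 99.6% of the features. Trav11 has near-identical copies, which makes its counts uncertain. Precision follows from 35210431 control and 39979742 cKO UMIs in all. Scripts ran in Python 3.11.15 with scipy 1.17.1 for intervals, numpy 2.4.6, matplotlib 3.10.9 for plots and pandas 2.3.3.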

Additional observations from a re-analysis of the deposited data

Results flagged for a closer look

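The Ifng ratio, cKO over control, was 1.64 in CD8 T cells but 0.702 in Trav11+ T cells, 0.789 in Klrb1c+ T cells and 0.786 in Izumo1r+ T cells. The library of 1 group lay above the other in CD8 T cells and below it in the other 3 classes, with ratio intervals that excluded 1 in each. The difference between the classes was not tested.

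Csf1 had a ratio of 5.79 in CD8 T cells, from 2 control and 16 cKO UMIs. In Klrb1c+ T cells its ratio was at most 0.391, from 40 control UMIs and 0 cKO UMIs set at 3 UMIs. This opposite direction rests on few UMIs at under 3 CPM and was not tested.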

How the results depend on the processing

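Ltb was lower in cKO under all 14, 13, 14, 14 and 11 alternatives in Trav11+ T, Klrb1c+ T, Izumo1r+ T, CD8 T and NK cells, from 1.41-fold to 8.13-fold. It lost its call in Izumo1r+ T cells at a ratio of at least 2, where 0 members were lower, and in NK cells with every cell weighted equally, where Ifng and Tgfb1 were lower in its place. Of 152 recomputed counts of members 37 moved. Of 528 recomputed ratios 66 moved out of their first interval and 4 reversed, a label kept for genes that the rule had called. Ratios that were not called also changed direction under some alternatives and are not among those 4. Tnf in Klrb1c+ T cells, for example, kept its direction in 5 of 13.

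In Trav11+ T cells the members higher went from 1 (Il4) to 0 with a total free of mitochondrial and ribosomal protein genes, with 2 class marker UMIs, without cells with B, gut or myeloid UMIs, among cells in 1 class only and at a ratio of at least 2, and to 2 (with Csf2) at 10 CPM. The members lower there went from 2 to 1 (Ltb), so that Tnf was lost, with every cell weighted equally, with 2 class marker UMIs, without cells with B, gut or myeloid UMIs, among cells in 1 class only and without cells with 3 or more gut UMIs. They went to 3, with Ifng added, at a 5% mitochondrial limit, with 3000 UMIs, with the total free of mitochondrial and ribosomal protein genes and with median-ratio scaling, and were Ifng and Ltb without the 5% deepest cells, where Tnf had a ratio of 0.875. In Klrb1c+ T cells the members higher went from 0 to 1, Csf2 with the total free of mitochondrial and ribosomal protein genes and at 10 CPM, and Il4 with 2 CD3 UMIs and among cells in 1 class only. The members lower went from 1 to 2, with Ifng added, without the 5% deepest cells, without cells with B, gut or myeloid UMIs and among cells in 1 class only. Leaving out cells with B, gut or myeloid UMIs kept 522 control and only 18 cKO Klrb1c+ T cells. It also moved the median log2 ratio of all features there by 0.37. In Izumo1r+ T cells Il4 was called, 1 member higher in place of 0, with no mitochondrial limit, a 5% limit, 2 CD3 UMIs, 2 class marker UMIs, and without cells with B, gut or myeloid UMIs or with 3 or more gut UMIs. The filter on B, gut or myeloid UMIs kept 534 control and only 25 cKO Izumo1r+ T cells. In CD8 T cells the members higher went from 1 (Ifng) to 0 with the total free of mitochondrial and ribosomal protein genes, median-ratio scaling, equal weights, without the 5% deepest cells and at a ratio of at least 2, and the members lower from 1 to 2 (with Il4) under that total. In NK cells the members higher went from 1 (Csf2) to 0 with 1000 genes, with 3000 UMIs and with 2 Ncr1 UMIs, and to 2 (with Tnf) with equal weights. The members lower went from 2 to 1 (Ltb) without the 5% deepest cells and at a ratio of at least 2. With equal weights there is no interval, and the call rests on ratio and level.

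Among single ratios in Trav11+ T cells, Tnf turned to 1.15 with 2 class marker UMIs and to 10.2 without cells with B, gut or myeloid UMIs, and Il4 to the opposite direction (0.360) under the latter, which left 29 control and 15 cKO cells. Csf2 in NK cells turned to 0.931 with 2 Ncr1 UMIs. Ifng had lower values in 13 of 14 alternatives in Trav11+ T cells (1.57 with 2 class marker UMIs), called in the 5 named above, and in 13 of 14 in Izumo1r+ T cells (1.30 without cells with B, gut or myeloid UMIs). The difference in cells with an Ifng UMI among Klrb1c+ T cells turned to 1.52 percentage points without thinning, where depth was unequal. For the others the cause was not tested.

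The total free of mitochondrial and ribosomal protein genes moved the median log2 ratio of all features by -0.20 in Trav11+ T, -0.21 in Klrb1c+ T and -0.32 in CD8 T cells. Without cells with B, gut or myeloid UMIs no NK value could be had, since a library had no such cells left. The myeloid list holds Fcer1g, which is also on the NK identity list. Fcer1g was found in 96.2% and 77.4% of NK cells and in 42.6% and 36.3% of Klrb1c+ T cells. This alternative therefore also leaves out cells by an NK cell gene, not only cells with RNA of other types. No paired analysis was possible because each genotype has 1 library. The rule of 20 CPM, not the depth alone, leaves lower levels uncalled, as of Csf2 in Klrb1c+ T cells, whose ratio interval was 1.94 to 4.16.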

Other observations

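Within each library, cells with and without an Ets1 or Tbx21 UMI were set apart after thinning to 1500 UMIs, over all T cells. Of the control T cells 51.9% had an Ets1 UMI, and of the cKO T cells 23.0%. Ltb was found in 37.6% (34.3 to 41.1) of cKO T cells with an Ets1 UMI and in 35.4% (33.6 to 37.3) without one, and in 72.6% and 70.6% of control T cells. Within either library the intervals overlapped, and cKO cells with an Ets1 UMI stayed far under the control share. In cKO CD8 T cells Ltb was found in 29.1% (22.0 to 37.1) with and 19.2% (15.7 to 23.1) without an Ets1 UMI, which overlapped slightly. An Ets1 UMI at the 3′ end does not show an intact gene.

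Of the control T cells 10.7% had a Tbx21 UMI, and of the cKO T cells 15.9%. In cKO T cells Il4 was found in 13.2% (10.5 to 16.3) of cells with a Tbx21 UMI and in 7.69% (6.75 to 8.71) of cells without one, with intervals apart. In control T cells the shares were 5.51% and 4.89%, and overlapped. The cKO difference was not seen in the 2 classes that were split this way. With and without a Tbx21 UMI, Il4 was found in 6.45% and 8.70% of cKO Trav11+ T cells. In cKO CD8 T cells it was found in 0% and 1.07%, and the intervals overlapped in both classes. The part of the mix of classes in the pooled difference was not tested. Ifng, the gene T-bet is best known for inducing, was found in 12.1% and 10.6% of cKO and 14.9% and 13.9% of control T cells with and without a Tbx21 UMI, and these overlapped in both libraries.

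In gamma-delta T cells, picked by Trdc and a CD3 UMI, 3 of the 4 cytokine genes that reached 20 CPM were lower in cKO and 0 were higher, where 5.53% and 11.4% of 6149 features were called lower and higher. Besides Ltb these were Ifng, which fell from 157 to 90.1 CPM, 1.74-fold lower (1.35 to 2.25), and Tgfb1, at 147 and 96.0 CPM, 1.53-fold lower (1.19 to 1.98). Il4 stood there at 25.5 and 30.3 CPM, with overlapping intervals.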
